A study of Caenorhabditis elegans with 2 samples.

Results

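In the series-level peak list of a VAB-7 ChIP-seq experiment, called over both replicates, 295 of 1815 summits (16.3%) lay in distal intergenic sequence. A summit is the deposited position of highest enrichment within a peak. Summits within 200 bp of the 5′ end of a tRNA, snoRNA or snRNA gene were first set aside, 514 in all. The distal intergenic summits are those of the other 1301 that lay more than 1000 bp from every protein-coding 5′ end and outside the span of every protein-coding gene. A further 717 of the 1301 lay within 1000 bp of a protein-coding 5′ end, and 289 lay farther away but inside a gene. The choice used position alone and no measured strength. The first 2 summits inside the 1000 bp limit both lay 1008 bp from a 5′ end, with signals of 131 and 70.6, and the first intergenic one outside it lay at 1000 bp with a signal of 88.7. At the small RNA limit the nearest kept summit lay 287 bp away, and the farthest one set aside that was otherwise distal lay 187 bp away. The small RNA condition alone removed 158 summits that met the other conditions.

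Chromatin came from whole L4 larvae of Caenorhabditis elegans strain RW12267, aged 47 h and synchronised by starving L1 larvae hatched after bleaching. The strain carries st12267[vab-7::TY1::EGFP::3xFLAG] III, a CRISPR insertion that adds TY1, EGFP and 3xFLAG tags to vab-7 at its own locus, and an anti-GFP antibody was used. There was 1 group of 2 biological replicates and no second condition, and the control experiment named in the labels was not analysed here. The worms were taken whole, so the values are sums over all cells, and binding in few cells cannot be told apart from weak binding in many. How the cultures of the replicates were separated is not said, so the difference between them may be partly technical.

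VAB-7 is the worm counterpart of Even-skipped, a homeodomain transcription factor first known from flies. It is known for its role in the posterior of the embryo and in the DB motor neurons, where it sets their identity. Such homeodomains recognise short DNA words with a TAAT core. Worm genes are packed closely, so sequence far from every gene start is a minor part of the genome, and it is rich in repeats, non-coding RNA genes and decayed gene copies. Regulatory elements at a distance from promoters are also known in this genome, as are the sites on the X chromosome that recruit the dosage compensation complex, which lowers transcription of both X chromosomes in hermaphrodites.

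Sequences at 8 of these summits are shown here because the descriptions that follow turn on them. Each is the plus strand of ce11 from 50 bp before to 50 bp after the summit, read from the RefSeq copy of WBcel235. The first, III:10917818-10917918, is the summit upstream of vab-7 itself, with the reverse complement of TAATGA in capitals.
vab-7 upstream: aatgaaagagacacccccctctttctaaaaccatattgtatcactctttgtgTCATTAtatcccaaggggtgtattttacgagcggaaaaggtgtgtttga
The next 2 are the strongest of a set of 20 summits of like sequence, at IV:2740156-2740256 and IV:16731412-16731512. Their capitals mark GCCGAGTGG, letters that also occur in the A box, the upstream part of the internal promoter of tRNA genes.
nhr-277 upstream: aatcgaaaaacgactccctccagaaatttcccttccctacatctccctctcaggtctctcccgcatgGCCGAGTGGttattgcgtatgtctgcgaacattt
Y51H4A.25 upstream: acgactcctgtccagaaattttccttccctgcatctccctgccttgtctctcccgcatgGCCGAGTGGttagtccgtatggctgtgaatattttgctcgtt
The next 2 stand for a set of 7 summits in tandem repeats, at IV:15896029-15896129 and IV:15059284-15059384. Their capitals mark TTCNNGAA, the arrangement of a pair of inverted units of the heat shock element.
srv-14 upstream: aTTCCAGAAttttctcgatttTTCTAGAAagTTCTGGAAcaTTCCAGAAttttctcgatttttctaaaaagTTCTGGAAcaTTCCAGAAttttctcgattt
Y41E3.13 downstream: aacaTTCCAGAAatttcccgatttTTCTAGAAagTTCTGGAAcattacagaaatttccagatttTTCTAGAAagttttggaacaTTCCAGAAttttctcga
The summit of highest signal, at IV:4727984-4728084, belongs to a set of 6. Its capitals mark the longest run, 8 bases, that all 6 sequences hold, within 150 bp of the summit, on either strand.
K08F11.1 downstream: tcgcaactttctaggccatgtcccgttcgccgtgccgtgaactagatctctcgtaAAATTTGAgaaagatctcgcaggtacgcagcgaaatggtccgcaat
The last 2 are the strongest summits on X, at X:11094117-11094217 and X:806623-806723. Their capitals mark GCGCAGGG or its reverse complement, the core of the motif known from the recruitment sites of the dosage compensation complex.
W02H3.3 downstream: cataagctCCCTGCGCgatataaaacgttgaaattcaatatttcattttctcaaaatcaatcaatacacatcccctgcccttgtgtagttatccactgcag
gtr-1 downstream: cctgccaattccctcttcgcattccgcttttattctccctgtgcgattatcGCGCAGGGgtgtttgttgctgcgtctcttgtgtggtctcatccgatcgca

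The signal of a peak is the authors' peak caller value, whose normalization is not stated, and it is compared here only within a list. The lists carry no read counts, so depth is unknown. In the series list the distal intergenic peaks had a median signal of 99.9 (95% order-statistic interval 95.3 to 105), with quartiles of 80.7 and 142 and a range of 2.52 to 520. The median was 98.1 (94.4 to 102) for peaks near a 5′ end, 88.7 (85.9 to 91.6) for peaks inside genes and 152.4 (145 to 160) at small RNA genes. The distal peaks thus had a median close to that of promoter-proximal peaks, above that of peaks inside genes and below that of small RNA genes. The upper 50% of the series list by signal held 130 distal peaks, or 44.1% of them, against 51.1% of the other series peaks. The 10 strongest series peaks included 1 distal peak and the 100 strongest included 17. Most distal peaks, 244 of 295, were 304 bp wide with the summit at the exact middle. The median width was 304 bp in every position class, so this width is not particular to the distal peaks. How precise the summit positions are was not tested.

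Of the 295 distal peaks, 95 (32.2%, exact 95% interval 26.9 to 37.9) were overlapped by at least 1 bp in the thresholded lists of both replicates. An interval on X holds 2 distal summits, so this is 94 of 294 distinct intervals. The same held for 699 of all 1815 series peaks, or 38.5%, and for 39.7% of the series peaks outside the distal class. By class the share was 30.3% (26.9 to 33.8) near a 5′ end, 21.8% (17.2 to 27.01) inside genes and 63.0% (58.7 to 67.2) at small RNA genes. The distal share was therefore at the level of peaks near gene starts, and the higher figure for the whole list came with the small RNA genes. Replicate 1 alone overlapped 37 distal peaks, replicate 2 alone overlapped 62, and neither overlapped 34.2%. The median series signal was 168 for distal peaks in both lists, 104 for those in replicate 1's alone, 99.1 for those in replicate 2's alone and 78.9 for those in neither. Of the 95 in both lists, 87 were in the upper 50% of the series list by signal. An overlap of 1 bp does not ask for a replicate summit at the series summit. A peak on V so counted had a signal of 6.42, with another series summit 202 bp away. With a replicate summit required within 100 bp, the distal share in both lists was 30.8%.

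**Figure D1:**
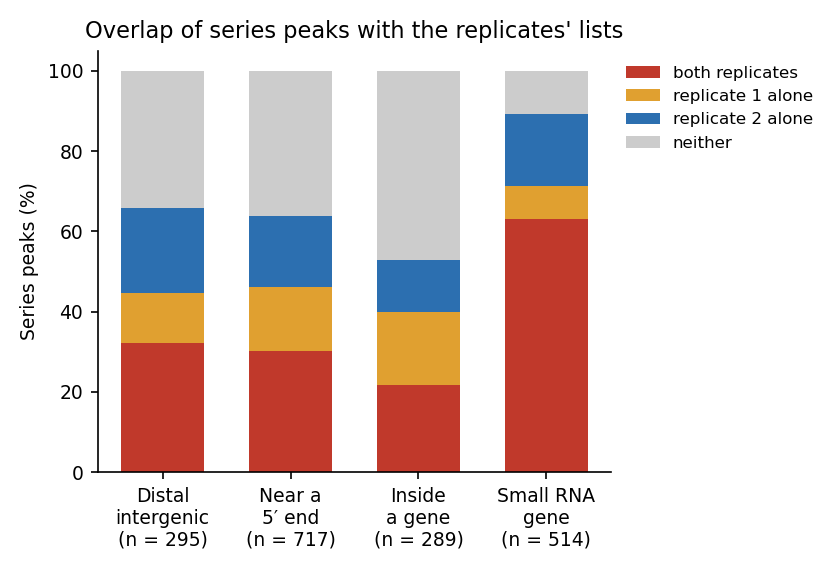
Share of series peaks (%) overlapped by the thresholded lists of both replicates, of 1 replicate or of neither, in each position class. The distal intergenic bar, with 32.2% in both and 34.2% in neither, resembles that of peaks near a 5′ end, with 30.3% and 36.3%.

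Peaks that missed a replicate's thresholded list were mostly present in its longer ranked list. A ranked peak covered the summit of 291 of the 295 distal peaks in replicate 1, whose ranked list holds 69586 peaks, and of 283 in replicate 2, whose list holds 48662. The median rank by signal was 1193 in replicate 1 and 1146 in replicate 2. Of the covered summits, 87.6% stood in the upper 5% of replicate 1's ranked list and 80.2% in the upper 5% of replicate 2's. The series list was called over both replicates and thresholded, so its peaks can stand high in each. These shares were not counted for the other series peaks, so they are not shown to be particular to the distal class. The signals ran from 5.87 to 305 in replicate 1 and from 4.56 to 213 in replicate 2.

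**Figure D2:**
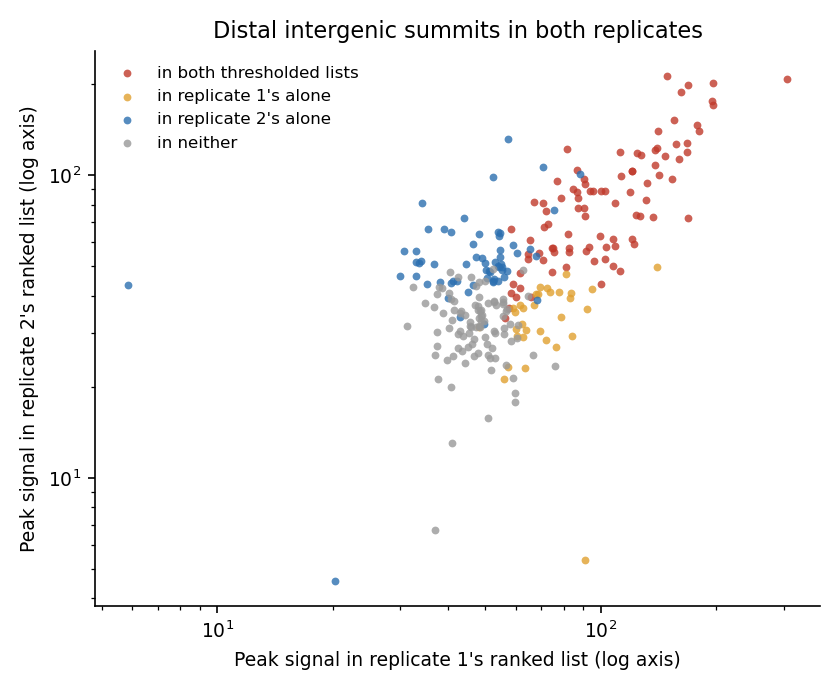
Signal of the ranked peak over each distal intergenic summit in replicate 1 (x, log axis) and replicate 2 (y, log axis), with 1 point per summit that has both. Points in both thresholded lists lie mostly at the upper right, up to 305 in replicate 1 and 213 in replicate 2, and points in neither lie mostly at the lower left.

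The 15 strongest distal summits had series signals between 272 and 520, and all 15 were in both replicates' lists. Of these, 6 lay on X, 5 on IV and 2 on I. The strongest lay between K08F11.1 and fbxb-78, an F-box gene, at IV:4727918-4728145, 71 bp from the pseudogene K08F11.6. Its signal was 520 in the series, 305 in replicate 1 (rank 9) and 208 in replicate 2 (rank 20). It was the highest distal peak in replicate 1, while in replicate 2 the distal peak between adm-2 and K02D3.1, at rank 17, stood above it. Next came X:11094029-11094330, in a convergent gap between W04G3.11 and W02H3.3, with signals of 395, 196 and 202 in the series, replicate 1 and replicate 2. The third lay on chromosome I between F40E3.3 and mage-1, a gene of the MAGE family, with 372, 194 and 176. These summits stood 1202 to 4019 bp from the nearest protein-coding 5′ end, and in each case that end belonged to a gene transcribed toward the summit, which places the summit beyond the gene's 3′ end.

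The next strongest were mainly on X. The peak between gtr-1 and F25E2.2 at X:806580-806782 had signals of 368 in the series, 169 in replicate 1 and 199 in replicate 2. The peak at X:4209165-4209392, between F20B6.9 and hpk-1, which encodes a homeodomain-interacting protein kinase, had 366, 196 and 170. The peak at X:13700682-13700996, between adm-2, a metalloprotease gene, and K02D3.1, had 365, 148 and 213. Replicate 2 gave this peak the highest signal of any distal summit, while it ranked 103 in replicate 1. The peak at X:9465790-9466003, between ZK899.6 and gap-2, a gene for a Ras GTPase activator, had 339, 178 and 147. The peak at X:16682012-16682209, between F22H10.2 and F22H10.11, had 300, 157 and 127. On V, the peak at V:1151406-1151605 lay inside the long non-coding RNA gene linc-128, with cmd-1, the calmodulin gene, as nearest start at 4769 bp, and had 352, 161 and 188.

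The remaining members of the 15 lay on II, IV and I. A peak between K07D4.2 and gadr-4 on II had signals of 318 in the series, 180 in replicate 1 and 140 in replicate 2. On IV, the peak upstream of nhr-277, a nuclear hormone receptor gene, lay 8 bp from the tRNA pseudogene Y94H6A.t1 and had 302, 155 and 153. On I, a peak between imb-3 and xpo-2, which both encode nuclear transport receptors, had 293, 168 and 119. The 3 others on IV had series signals of 288 beside srv-14, a chemoreceptor gene, 277 between Y51H4A.23 and Y51H4A.25, and 272 between Y116A8A.150 and map-2, a methionine aminopeptidase gene. The first and last of these 3 ranked 71 and 85 in replicate 1 and 107 and 155 in replicate 2. Gaps between genes of the same orientation held 12 of the 15, convergent gaps held 3 and divergent gaps held 0.

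A weak end of the list had another form. The 3 lowest signals were 2.52, between imph-1 and pan-1 on III, 4.57, between csnk-1, a casein kinase gene, and lin-11, a LIM homeobox gene, on I, and 5.63, between taf-12 and Y56A3A.6 on III. In all, 5 distal peaks had a signal under 20, or 1.69%, against 2.89% of the other series peaks. Each of the 5 had another series summit 199 to 216 bp away, with a signal between 86.4 and 144, and each had the top score of 1000. No ranked peak of either replicate covered the summits of 4.57 and 5.63. Each was thus the lower of a pair of series summits whose deposited intervals overlap, and for the summit of 7.63 on X both summits share 1 interval.

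At vab-7 itself (III:10920344-10926041, plus strand) the nearest distal summit lay 2476 bp upstream of the 5′ end, between cut-6 and vab-7. Its signal was 89.8 in the series, below the median of the distal peaks. It was 45.2 in replicate 1, rank 2379, and 41.2 in replicate 2, rank 1302, and only replicate 2's thresholded list held it. On the other side of vab-7 the nearest distal summit was 184887 bp beyond the 3′ end, between hmt-1 and sup-35, with a series signal of 119. The upstream summit thus stood between the quartiles of the distal peaks, and no distal summit lay close to the gene on its other side.

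The nearest protein-coding 5′ end lay at a median of 2583 bp from a distal summit, with quartiles of 1705 and 4291 bp. The summit lay on the upstream side of that gene in 199 cases (67.5%, 61.8 to 72.8). The rule leaves out gene spans, which takes sequence away from the downstream side. The share of the allowed sequence on each side was not counted, so this is no measure of a preference. Of the 295, 198 (67.1%) were more than 2000 bp from any 5′ end and 59 (20%) more than 5000 bp. The 5 farthest lay 11539 to 28670 bp away. The farthest, near the pseudogene Y111B2A.25 on III in the gap between sql-1 and aakg-1, which encodes a regulatory subunit of AMP-activated kinase, had a signal of 70.3 and was in neither replicate's list. It nevertheless lay 175 bp from a protein-coding 3′ end. The second, 22589 bp away on IV beside a piRNA gene, had 104 and was in replicate 1's list alone. A pair on III in the gap between plg-1, the gene for the mating plug mucin, and K01F9.2 had 100 and 130, and the remaining one, between snt-1, the synaptotagmin gene, and egl-27 on II, had 84.2. Of these 5, only the peak of 130 in the plg-1 gap was in both lists.

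Positions were also set against the sequence that the rule allows, that is, all positions of the 6 nuclear chromosomes that a distal summit could take. This was 24430 kb, or 24.4% of those chromosomes, with 12.1 distal summits per Mb. Protein-coding 3′ ends lay within 500 bp of 53 distal summits (18.0%, 13.8 to 22.8), against 12.2% of the allowed sequence. Gaps between genes of the same orientation held 155 distal summits (52.5%, 46.7 to 58.4) and 53.6% of the allowed sequence. Divergent gaps held 80 (27.1%, 22.1 to 32.6) and 30.5% of the sequence. Convergent gaps held 60 (20.3%, 15.9 to 25.4) and 15.6% of the sequence. The intervals for 3′ ends and for convergent gaps began just above the length shares, and those for the other gap types included them. In the authors' conservative peak list the convergent share was 19.0% of 294 distal summits. That list overlapped 243 of the 295 distal peaks of the series list (82.4%), so the 294 are partly other summits. The intervals take summits as independent, while 6 of the 60 in convergent gaps of the series list lay in 1 gap on X. The convergent excess is therefore not established, and the excess at 3′ ends rests on the same assumption of independence. The median signal was 100.9 in same-orientation gaps, 96.3 in divergent gaps and 108 in convergent gaps. Both replicates' lists held 46, 23 and 26 of these summits in the same order.

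Other non-coding genes and pseudogenes lay within 200 bp of 76 distal summits (25.8%, 20.9 to 31.2), and 51 of these were inside the span of such a gene. The allowed sequence within 200 bp of such genes made up 24.5%, so the summits were at them about as often as their length. By class, 53 summits were at genes annotated as ncRNA, 11 at pseudogenes other than those of tRNA genes, 5 at tRNA pseudogenes, 5 at lincRNA genes, 4 at miRNA genes and 3 at piRNA genes. A summit near genes of several classes is counted in each, and summits at the same gene are counted separately, such as 6 at C30E1.9 on X. The median signal was 96.2 with such a gene and 100.9 without, and 20 of the 76 and 75 of the other 219 were in both replicates' lists.

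The strongest summits beside each class were as follows. Among ncRNA genes, the summit 127 bp from Y41E3.460 on IV had a series signal of 251 and the one inside K10H10.14 on II had 237. Next was a summit inside F36H1.17 on IV, 94 bp from cel-mir-51, a member of the miR-51 family, with 206 in the series, 119 in replicate 1 and 87.8 in replicate 2. This was also the strongest summit at a miRNA gene and was in both lists. The summits inside cel-mir-8209 and cel-mir-8196a had 85.9 and 70.3 and were in neither. At lincRNA genes, linc-128 (352) was followed by linc-91 (104) and linc-109 (96.6), both in replicate 2's list alone. At pseudogenes, K08F11.6 (520) was followed by T26C11.3 on X (189) and srz-86 on III (146), all in both lists. At tRNA pseudogenes, Y94H6A.t1 (302) was followed by Y53G8B.t9 on III (135), in replicate 1's list alone, and F23G4.t1 on X (102), in replicate 2's alone. At piRNA genes, the small RNAs that silence transposons in the germ line, the signals were 207 beside 21ur-11151, 104 beside 21ur-6325 and 83.9 beside 21ur-8870.

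tRNA pseudogenes are decayed copies of tRNA genes that the small RNA condition does not remove. Of 209 annotated, 6 had a distal summit within 200 bp, 1 had a summit near a 5′ end, 3 had a summit inside a gene, and 3 had a summit of the small RNA class. Annotated tRNA, snoRNA and snRNA genes were mostly far from the distal summits, at a median of 43205 bp, and 7 of the 295 lay within 1000 bp of the 5′ end of one.

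All position classes had a rise in GC content at the summit. The windows of 50 bp to either side of distal summits had a mean GC of 49.0% ± 8.996 (SD, n = 295 windows), against 34.4% in windows of the same size centred 300 bp to either side. The mean was 49.1% near 5′ ends, 49.3% inside genes and 51.4% at small RNA genes. The allowed sequence averaged 34.3%, so the flanks of distal summits were at its level. The centre exceeded the mean of its flanks at 271 of the 295 distal summits (91.9%), against 90.7% of the other series summits. Single windows ran from 20.8% to 76.2%, with 31 over 60% and 25 under 35%. Soft-masked bases, which mark repeats in the RefSeq sequence, made up 26.1% of the distal windows on average, against 17.6% in the other series windows and 40.4% of the allowed sequence. Windows with at least 50% masked bases made up 18.3% of the distal class and 8.42% of the rest.

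**Figure D3:**
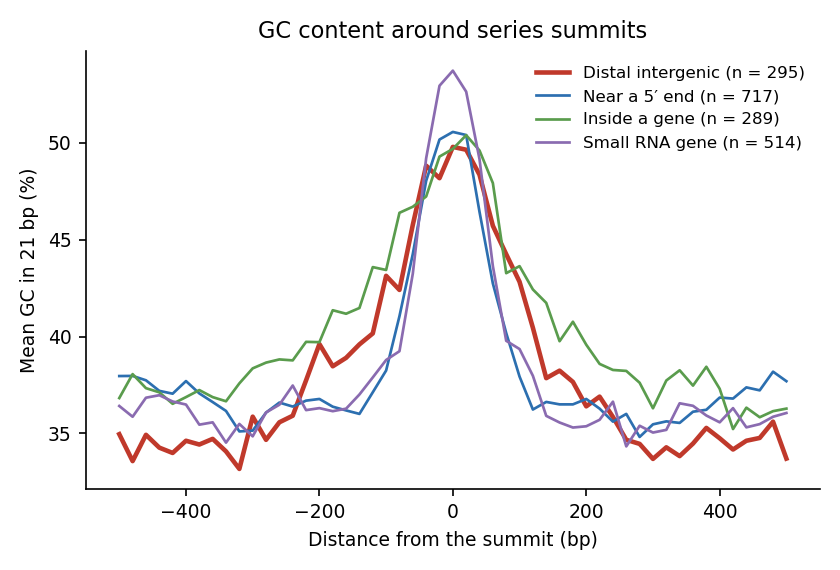
Mean GC (%) in 21 bp windows by distance from the summit (bp), for the distal intergenic, near-5′-end, inside-gene and small RNA gene classes. All 4 lines are highest within 20 bp of the summit, where the distal line reaches 49.8%, and at 500 bp the distal line is the lowest of the 4, with 34.96% on the left and 33.7% on the right.

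Words for a homeodomain were present at few of these summits. TAATTA or TAATGA on either strand was present in 13 of the same 295 windows (4.41%, 2.37 to 7.42). The same words were in 14.2% of the left flanks and 11.2% of the right ones, in 11.5% of the 233654 windows that tile the allowed sequence, and in 4.30% of all series summits. Runs of 6 or more of A alone or of T alone were likewise lower, with 15.3% at distal summits, 48.5% and 48.1% in the flanks and 45.5% in the tiles. Both kinds of word are AT-rich, the centre had a mean GC of 49.0% against 34.4% in the flanks, and the part of base composition in these shares was not tested. The word GCGCGC was in 9.49% of distal windows (6.40 to 13.4), in 0.339% and 1.02% of the flanks, in 0.711% of the tiles and in 8.98% of all series summits. It holds only G and C, and the part of base composition in its shares was not tested either. The core of the tRNA B box, GTTCNANNC, was in 6.44% of distal windows (3.92 to 9.88), against 3.33% of the tiles. It was in 4.41% of the left flanks and 5.08% of the right ones, both inside that interval. Its share was 19.2% of all series summits, 6.92% of those inside genes and 55.6% of the windows at small RNA genes.

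**Figure D4:**
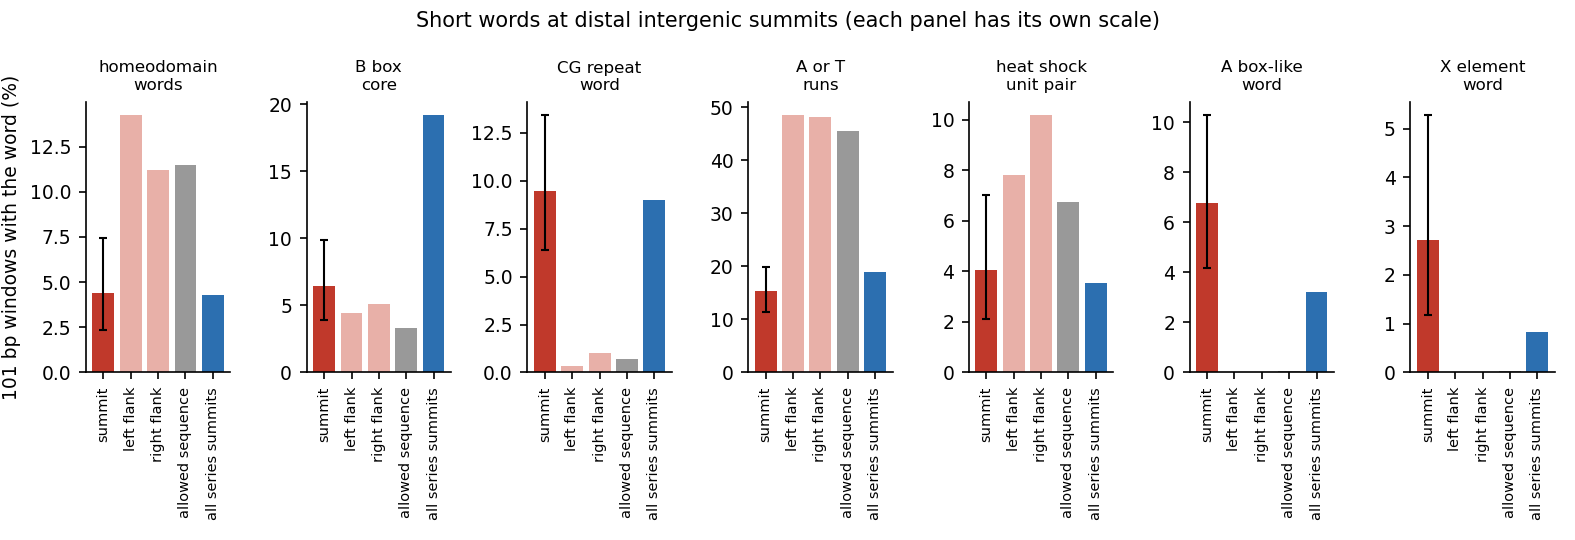
Share of windows (%), each reaching 50 bp to either side of its centre, that hold each of 7 words on either strand, at distal intergenic summits (with exact 95% intervals), in their left and right flanks, in tiles of the allowed sequence and at all series summits, each panel with its own scale. The homeodomain words and runs of A alone or of T alone are lower at the summits than in the flanks, at 4.41% and 15.3%. The CG repeat, A box-like and X-chromosome words are higher than in the flanks. The part of base composition in these differences was not tested. The CG repeat word is at 9.49% of distal summits and 8.98% of all series summits. The heat shock, A box-like and X-chromosome words were picked after these sequences had been seen, so their bars and intervals only describe. Of the 20 windows with the A box-like word, 18 belong to 1 set of like sequence.

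When sequences reaching 150 bp to either side of the summits were aligned to each other, 82 of the 295 (27.8%) matched another at 80% identity or more over at least 100 bp. They formed 23 sets, 7 of 3 or more members and 16 pairs. The windows of 1 pair on X share bases by position, and without matches of that kind 80 summits, 22 sets and 15 pairs remain. The summits in a set had a median signal of 147 and 45 of the 82 (54.9%) were in both replicates' lists. The 213 others had a median of 94.9, and 50 of them (23.5%) were in both lists. Reads from copies that are nearly identical can be placed at more than 1 locus, and how the authors treated such reads is not given in the sources used here. The part of this in the higher signals was not tested.

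The largest set had 20 summits spread over all 6 chromosomes, with 4 each on III, IV and X. Their signals ran from 72.0 to 302 with a median of 147, and 11 were in both lists. In replicate 1 they ran from 29.97 to 155 and in replicate 2 from 24.9 to 153. The word GCCGAGTGG, printed in capitals in the windows near nhr-277 and Y51H4A.25 and picked after the sequences had been seen, was in 18 of the 20 windows. It was in 20 distal windows in all (6.78%), against 0 of both flanks, 0.0372% of the tiles and 5.06% of the small RNA gene summits, at a median of 17 bp from the summit. Only 1 of the 20 lay at an annotated tRNA pseudogene, the summit upstream of nhr-277. The genome held 86 copies at the same identity and length, of which 35 (40.7%) had a series summit in them or within 50 bp, 11 of these inside genes and 4 near a 5′ end. Within the allowed sequence 20 of 51 copies (39.2%) did. The copies were found with the summits' own sequences as queries, so the 20 are among them by construction. Most copies of the repeat thus had no summit in the series list, and those that had one were spread over every chromosome.

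The set of 7 had signals of 105 to 288 with a median of 214, and 5 were in both lists. All 7 windows were fully soft-masked and all held TTCNNGAA, a word also picked after the sequences had been seen. The mean GC of these windows was 32.7%, below the 34.3% of the allowed sequence, unlike most distal summits. Besides the summit beside srv-14 they included one near fbxa-190, an F-box gene on X (237), and one upstream of nhr-247 on V (108). Over all distal windows its share was 4.07%, against 6.75% of the tiles, 7.80% and 10.2% of the flanks, 3.53% of all series summits and 0.584% of those at small RNA genes. The genome held 246 copies, and 11 (4.47%) had a series summit.

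The set of 6 held the strongest distal peak and that beside F40E3.3, with signals of 128.8 to 520 and a median of 205. All 6 were in both replicates' lists, and 3 of them lay on IV, 2 on V and 1 on I. Here too most copies had no summit, since 8 of 363 (2.204%) did. Of the smaller sets, one of 5 members had signals of 165 to 318 and all in both lists, with 6 of its 9 genome copies at a series summit, and included the summits near K07D4.2 and map-2. Another of 4, all on V and all in both lists, had 10 of 23 copies at a summit. A set of 5 in repeats had 6 of 700 copies at a summit, and 1 of its members was in both lists.

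On the X chromosome lay 74 distal summits (25.1%, 20.2 to 30.4), against 22.7% of the allowed sequence and 21.3% of all series summits. The summits per Mb of allowed sequence were 13.3 on X, 13.8 on I, 8.63 on II, 18.3 on III, 10.8 on IV and 9.96 on V. Chromosome III thus had the highest density, with 16.9% (12.8 to 21.7) of the summits in 11.2% of the allowed sequence, and X stood near the average of 12.1. Of all series summits, 18.1% lay on III, so its high share is not particular to the distal class. The median signal was 107 on X, 105 on IV and 92.9 to 100 on the other chromosomes. Both replicates' lists held 7 of the 38 on I, 8 of the 30 on II, 16 of the 50 on III and 22 of the 53 on IV. They held 15 of the 50 on V and 27 of the 74 on X, so the share was highest on IV.

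**Figure D5:**
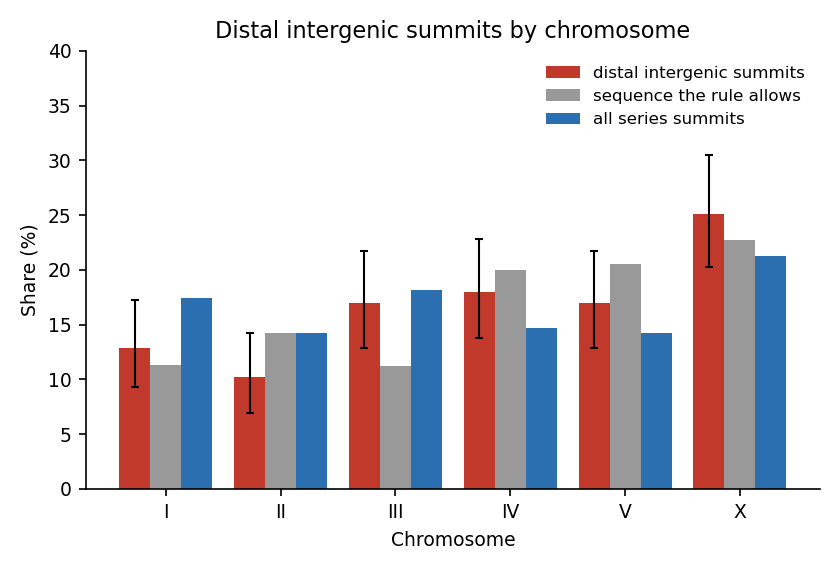
Share (%) of the 295 distal intergenic summits on each chromosome, with exact 95% intervals, beside that chromosome's share of the sequence the rule allows and of all 1815 series summits. Chromosome III has 16.9% of the summits in 11.2% of the sequence, and X has 25.1% in 22.7%. Of all series summits, III has 18.1% and X has 21.3%.

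A word seen at the strongest X summits was noticed in their sequences and then counted, so its count is a description. GCGCAGGG or its reverse complement was in 8 of the 74 distal windows on X (10.8%) and in 0 of the 221 on the autosomes. In the tiles it was in 0.0468% on X and 0.0283% on the autosomes, and in 0 flanks. The 8 summits had a median signal of 244, and 6 were in both lists. They included 4 of the 15 strongest, those near W02H3.3, gtr-1, hpk-1 and F22H10.2, then those at T26C11.3 (189), between lgc-40, a ligand-gated ion channel gene, and T24D8.6 (188), between C34D10.1 and xol-1 (118) and near col-185, a collagen gene (102). xol-1 is the X-linked switch gene of sex determination and dosage compensation. Its summit and that near lgc-40 are named after their values were seen. Across the genome the word occurred 81 times on X and 233 times on the autosomes. A series summit lay within 50 bp of 13 (16.0%) of those on X and 4 (1.72%) of those on the autosomes. In the allowed sequence, distal summits lay at 8 of 35 on X and at 0 of 55 on the autosomes. All 8 distal summits with the word were thus on X. No test was made of this difference, since the word was picked from these summits.

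Groups of 3 or more distal summits within 10 kb were found at 7 places. The largest was on X in the convergent gap between C30E1.4 and F52G3.8, with 6 summits over 4280 bp and signals of 7.63 to 199. Each of the 6 lay inside the ncRNA gene C30E1.9 or, for the strongest, 126 bp from it. Of the 6 summits, 4 were in both lists, but 2 of these 4 belong to 1 deposited interval, which is scored once for each. Of the 6, 3 form a set of like sequence within this locus. The other groups had 3 summits each, between Y105E8B.9 and ttm-5 on I (79.9 to 214), between snt-1 and egl-27 on II (78.9 to 93.7), and between ckr-2 and dpy-1 on III (76.3 to 178). They also lay around M88.4 and pan-1 on III (2.52 to 87.2), between hmt-1 and sup-35 on III (71.4 to 119) and around R03E9.2 and abts-4 on X (78.4 to 84.0). The 3 summits between hmt-1 and sup-35 all lay inside the pseudogene Y48A6C.2. In 4 of these 7 groups no summit was in both lists.

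The nearest protein-coding 5′ ends of the 295 summits belonged to 266 genes, or 1.33% of the 19973 protein-coding genes. Of 8 Hox and related homeobox genes, 1 was among them, vab-7 itself. None of the 88 genes on a list of other homeobox genes and none of 13 motor neuron genes was. That list is not complete: unc-39, a homeobox gene that it lacks, had the nearest start to 2 distal summits on V, with signals of 89.7 and 82.1, and is named after its values were seen. Of 81 ribosomal protein genes 1 was, rps-6, whose summit lay 1189 bp away on the downstream side with a signal of 100.9. None of 50 histone genes was, and 1 of 194 collagen genes was, col-185. Of 269 nuclear hormone receptor genes 3 were, nhr-277 (302), nhr-88 (190) and nhr-247 (108), or 1.12%. Of 1163 chemoreceptor genes 6 were (0.516%), with srv-14 (288), srw-33 (105) and srw-35 (96.6) the strongest. Of 552 F-box and C-type lectin genes 1 was, fbxa-190 (237). These shares of the lists, apart from the 1 of 8, were at or below that of all genes.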

How the data were processed

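ChIP-seq of 2 biological replicates of 1 group was analysed from deposited peak lists on ce11, as the labels name it. Peaks were called per replicate and over both replicates, per the deposited files' labels. Per the file layout, the deposited score is the authors' rescaling of the irreproducible discovery rate (IDR), up to 1000, and the deposited signal is the authors' peak caller value. For the aligner, peak caller, depth, filters and treatment of the control, the entry is: not given in the sources used here. Intervals cover counting error only.

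Summits of the series list were classed on 6 nuclear chromosomes against the Ensembl annotation, release 115, of WBcel235, whose chromosome lengths are those of ce11. Pseudogene kinds and names came from the RefSeq annotation, joined on WormBase identifiers. Windows reached 50 bp to either side of the summit and flanks were centred 300 bp away. Sets of like sequence came from blastn 2.17.0 (word size 11) on sequences reaching 150 bp to either side. Python 3.11.15, numpy 2.4.6 and scipy 1.17.1 were used. Shares have exact (Clopper-Pearson) 95% intervals. No p-value was computed, since there is 1 group and regions are not replicates. The scripts were tested on simulated data.

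The summits, gene lists and words were chosen with earlier results of these data known. Named were the summit nearest vab-7 on either side, the 15 strongest, the 3 strongest per class of other gene, the 5 farthest from a 5′ end, the 3 weakest, groups of 3 or more within 10 kb, at most 3 per gene list, and the 3 largest sets, with some smaller sets added after their values were seen. Alternatives changed the distance, radius, list, overlap and window.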

Additional observations from a re-analysis of the deposited data

How the results depend on the processing

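No paired analysis was possible because there is 1 group of 2 replicates. The number of distal summits, 295, was 453 with small RNA summits kept, 130 in the upper 50% by signal, and 139 to 182 in 1 replicate's list at a time. The share in both replicates' lists, 32.2%, was 66.9% in the upper 50% by signal and 23.5% without the summits that match another in sequence, an alternative chosen after seeing the data. Without those the median signal of 99.9 was 94.9. The share at other non-coding genes or pseudogenes, 25.8%, was 17.3% for summits inside the span and 19.4% to 24.7% in single replicates' lists. The convergent share, 20.3%, was 20.3% to 25.9% in those lists. Mean GC, 49.0%, was 46.6% over 100 bp to either side and 47.6% to 48.4% in those lists. The share with a homeodomain word, 4.41%, was 12.2% over 100 bp to either side. The cause was not tested, beyond fewer peaks in shorter lists and more sequence in wider windows. The other 45 values moved by less than the interval of the main value, or by under 1.5 times for counts. Depth is unknown, and a share of 0 in few windows limits little.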

Other observations

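In the ranked list over both replicates, 1887 peaks had a score of 830, the series list's minimum, or more. The series list lacks 72 of them, and by the same position rule 63 of the 72 were distal intergenic, with signals of 56.0 to 3393. The highest, on X 6934 bp from the start of Y7A5A.7, exceeded the highest distal peak of the series list, 520. Why these peaks are not in the series list is not given in the sources used here, and they enter no count above. Distal intergenic summits made up 16.3% of the series list, against 19.2% of the 86192 ranked peaks outside it.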
